A study of Mus musculus with 2 samples.

Results

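A small group of epithelial cells in dissociated mouse cochlea carried RNA of basal keratins or of the mucosal genes Ly6k and Reg3g together with a general epithelial gene. A droplet barcode was selected when it had at least 500 UMIs (unique molecular identifiers, each standing for 1 captured RNA molecule), at least 300 genes and at most 20% mitochondrial UMIs. It also needed at least 1 UMI of each of 2 or more of Krt5, Krt14, Krt15, Krt17, Ly6k and Reg3g, at least 1 UMI of any of Epcam, Krt8, Krt18 and Krt19, and no UMI of Otof, a hair cell gene, or Ceacam16, a gene of the tectorial membrane. This rule found 284 of 37556 passing barcodes: 70 of 17423 came from the noise-only library and 214 of 20133 from the drug and noise library.

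Both libraries came from wild-type C57BL/6J mice aged 4 to 6 weeks that were exposed for 2 hours to noise of 105 dB in the band from 8 to 16 kHz, and the sensory epithelium was taken 2 days later. The drug and noise library pooled 5 cochleae treated with the drug at 90 mg/ml before the noise. The noise-only library pooled the 5 untreated cochleae of the other side of the same mice. The labels call the agent only "Drug", and the series title abbreviates it as VPA. How it was given is not stated in the sources used here. Both groups carry the noise exposure, and the treated and untreated ears shared a circulation. Each group is 1 library of RNA 3′ ends read on the 10x Genomics platform, so that drug treatment and library cannot be told apart and no test across samples was possible. Ratios are given with an exact 95% interval that covers counting error only. The drug and noise library is named first in every ratio.

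Keratins are the filament proteins of epithelia. Krt5, Krt14 and Krt15 are typical of basal cells that sit on the basement membrane, and Krt8, Krt18 and Krt19 are typical of simple and luminal epithelium. Mucosal epithelia of the airways and of the middle ear release proteins such as Bpifa1, lactoferrin (Ltf), lipocalin 2 (Lcn2) and the antibacterial lectin Reg3g onto their surface, where these bind or hinder microbes. The sensory epithelium of the cochlea is built from hair cells and supporting cells and is not known as a secretory mucosa.

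The tissue label was matched by RNA of the organ of Corti among many other cells. At least 3 hair cell markers were in 309 and 374 passing barcodes, and at least 3 Schwann or satellite glia markers in 11569 and 10754. The selected barcodes held more RNA than the average barcode. Their median was 6553 UMIs in the noise-only library and 4759 UMIs in the drug and noise library, against medians of 1168 and 1217 UMIs over all passing barcodes. The 2 files held 111 barcode sequences in common. Of these, 1 in all was a selected barcode of either library, and none was selected in both. The rule genes left out few others: among barcodes with at least 2 of the 6 keratin and mucosal genes, 1 noise-only and 3 drug and noise barcodes lacked every simple epithelial gene, and 1 and 5 carried Otof or Ceacam16. At the edge of the rule, 24 noise-only and 72 drug and noise barcodes were selected with exactly 2 of the 6 genes, and their median Bpifa1 level was 1312.5 and 302 UMIs. Just outside it, 54 and 67 barcodes had only 1 of the 6 genes with a simple epithelial gene, and their median Bpifa1 level was 541 and 39 UMIs. Bpifa1 was in 83.3% and 65.7% of those barcodes outside the rule.

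The selected cells were dominated by Bpifa1, a secreted protein of upper airway and middle ear epithelium that the rule did not use. Bpifa1 was found in 70 of 70 noise-only barcodes, where it ran from 12 to 3226 UMIs with a median of 1034. It was found in 210 of 214 drug and noise barcodes, where it ran from 0 to 1527 UMIs with a median of 171.5. It made up 15.0% of all UMIs of the selected noise-only barcodes and 4.87% of those of the drug and noise barcodes. In barcodes with Schwann or satellite glia markers, which should not make it, Bpifa1 was seen in 3.22% and 2.70%, at a median depth of 1027 and 1227 UMIs. Wfdc2, a secreted protease inhibitor family protein of airway epithelium, was found in every selected barcode of both libraries, at 6741 CPM (UMIs of the gene scaled to a common total of UMIs, here over the summed barcodes of a library) in noise-only barcodes and 9521 CPM in drug and noise barcodes.

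Other secretory and water channel genes accompanied them. Cyp2f2, a cytochrome P450 known from club cells of the airway, was in 100% of noise-only and 75.7% of drug and noise barcodes. Aqp5, a water channel of secretory surfaces, was in 88.6% and 84.1%. The membrane mucin Muc4 was in 38.6% and 20.6%. The gel-forming mucin Muc5ac and the secretoglobins Scgb3a1 and Scgb3a2 had 0 UMIs in both libraries, while Muc5b and Scgb1a1 had 0 and 1. A count of 0 in 70 barcodes allows a share of up to 4.29% with a UMI, and 0 in 214 allows up to 1.40%, on a floor of 3 counts and for counting error only. RNA of these classical goblet and club cell products was thus at or near 0 at this depth.

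Set beside all other passing barcodes, 15 of the 18 measured genes of the basal epithelium list were at least 2 times higher in the selected barcodes of both libraries, as were 16 of 16 simple epithelium genes and 14 of 19 mucosal genes. The background was 4.76% of 15981 genes. The rule used that contrast, so these counts describe the selected cells and are no evidence for them. By the same measure, 2 of 18 genes of cochlear supporting epithelium and 0 of 11 hair cell genes were higher. The rule left out barcodes with Ceacam16 or Otof, which belong to these lists. These low counts were thus partly set by the rule and are also a description. Trp63, the transcription factor of basal epithelial cells, was detected in 22.9% of noise-only and 15.9% of drug and noise barcodes. Of the 20 genes named for being highest over the other barcodes in both libraries, examples were the beta-defensin Defb1, the water channel Aqp3, the chemokine Cxcl17, the GABA receptor subunit Gabrp and the transcription factor Pax1.

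Most measured transcription factors, like most genes, differed by less than 2-fold between the 2 libraries. Pax9, a factor of pharyngeal endoderm and its derivatives, was at 216 CPM in the noise-only and 214 CPM in the drug and noise barcodes (ratio 0.99, interval 0.79 to 1.24). Pax1, its close relative, was at 252 and 319 CPM (1.27, 1.04 to 1.55). Foxa1, a factor of endodermal epithelia, was at 170 and 146 CPM (0.86, 0.67 to 1.12). Foxe1, Tbx1, Isl1 and Sox2 had ratios of 0.95, 0.97, 0.91 and 0.94, each with an interval that spans 1. Foxa2, Nkx2-1, a factor of lung and thyroid, and Pax2, a factor of otic epithelium, had 0 UMIs in both libraries. Of the 41 genes in the list of airway and epithelial transcription factors, 25 had at least 20 UMIs, of which 2 had a ratio of at least 2 and 0 had a ratio of at most 0.5. Over all genes with at least 20 UMIs those shares were 9.02% and 3.33%. The 2 factors with a ratio of at least 2 were Irx5, with 8 and 53 UMIs, and Sox9, with 5 and 35 UMIs. Both were lower in the selected barcodes than in the other barcodes of each library.

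**Figure D1:**
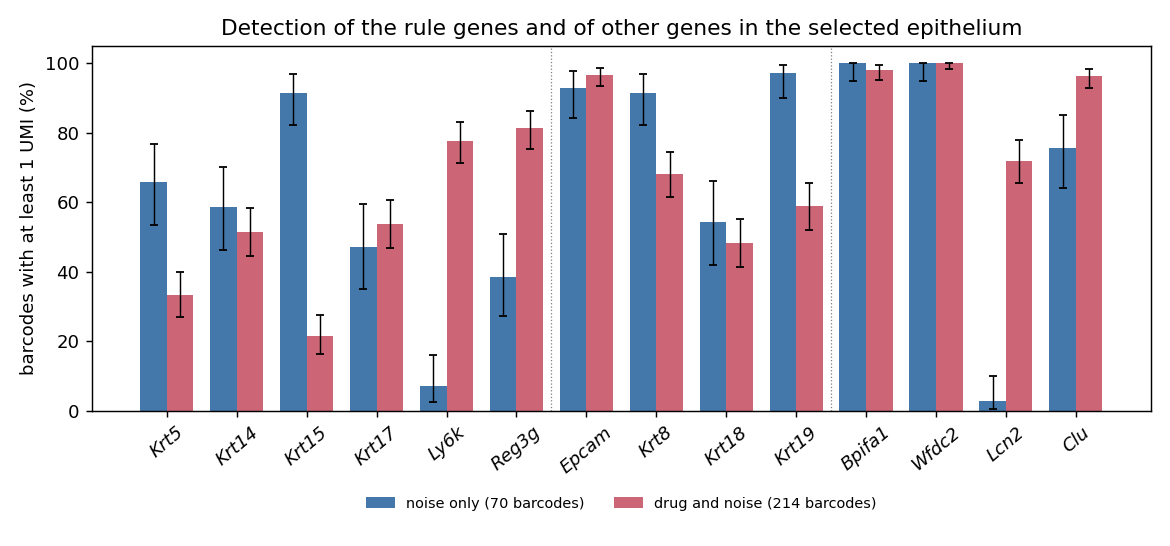
Share of selected barcodes with at least 1 UMI of each gene (vertical axis, percent) in the noise-only library (blue, 70 barcodes) and the drug and noise library (red, 214 barcodes), with exact 95% binomial intervals for counting error. The dotted lines part the 6 keratin and mucosal rule genes, the 4 simple epithelial rule genes and 4 genes outside the rule. Krt15 is in 91.4% of noise-only barcodes and Ly6k in 77.6% of drug and noise barcodes.

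The label of a keratin 15 epithelium held for one library only. Krt15 was in 64 of 70 noise-only barcodes (91.4%) and in 46 of 214 drug and noise barcodes (21.5%). Its level ran from 0 to 48 UMIs with a median of 10 in the noise-only library, and from 0 to 24 UMIs with a median of 0 in the drug and noise library. Krt5 was in 65.7% and 33.2% of barcodes. Krt19 was in 97.1% and 58.9%, and Krt8 in 91.4% and 68.2%.

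The mucosal rule genes had the opposite pattern. Ly6k, a cell surface protein of the Ly6 family, was in 5 of 70 noise-only barcodes and 166 of 214 drug and noise barcodes, with at most 1 UMI per barcode in the former and up to 15 in the latter. Reg3g was in 38.6% and 81.3% of barcodes, with medians of 0 and 5 UMIs and maxima of 29 and 164. Krt14 was in 58.6% and 51.4%, Krt17 in 47.1% and 53.7%, and Epcam, an adhesion protein of most epithelia, in 92.9% and 96.7%. Among Schwann or satellite glia barcodes, Krt15 was seen in 0.182% and 0.131%, Ly6k in 0.0867% and 0.263%, and Reg3g in 0.052% and 0.282%. These are rule genes, so the values describe how the 2 libraries met the rule and were not tested.

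The libraries therefore qualified by different gene pairs. At least 2 of the 4 basal keratins were found in 55 of the noise-only barcodes (78.6%) and 112 of the drug and noise barcodes (52.3%). Ly6k and Reg3g with none of the 4 keratins qualified 1 noise-only barcode and 47 drug and noise barcodes. Krt15 with Krt5 was the pair in 45 noise-only barcodes (64.3%) and 15 drug and noise barcodes (7.01%), and Ly6k with Reg3g in 1 and 135 (1.43% and 63.1%). After each barcode was thinned to 1000 UMIs, which kept 69 and 213 barcodes, Krt15 was found in 73.9% and 10.3%, Ly6k in 1.45% and 34.7%, and Reg3g in 11.6% and 59.6%. On the GRCm38 build, Krt15 (chr11:100131758-100135928), Krt19 (chr11:100140810-100148665), Krt14 (chr11:100203162-100207548) and Krt17 (chr11:100256217-100261029) lie close together on the minus strand in the GENCODE M21 annotation. Of these neighbours, Krt15 and Krt19 were lower in the drug and noise barcodes and Krt14 and Krt17 were not.

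**Figure D2:**
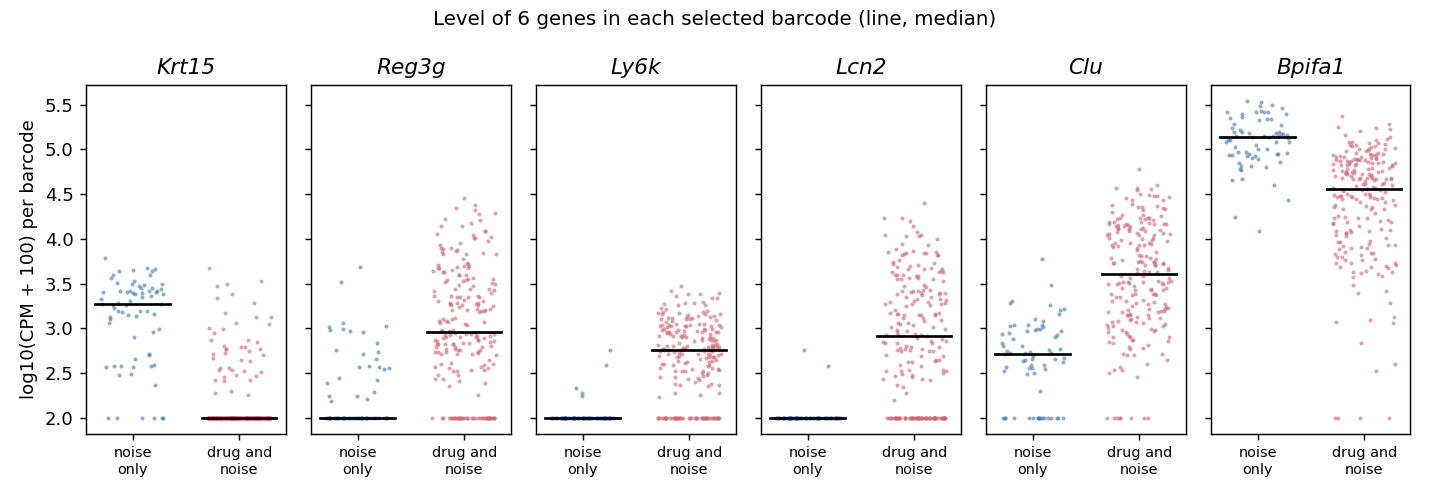
Level of 6 genes in every selected barcode, as log10 of CPM plus 100 (vertical axis), for the noise-only library (blue, 70 barcodes) and the drug and noise library (red, 214 barcodes). Points are barcodes spread sideways for sight, and the line is the median. The Krt15 median is above the floor in the noise-only library only, and those of Reg3g, Ly6k and Lcn2 in the drug and noise library only.

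Selected barcodes made up 0.402% of the noise-only library (exact 95% binomial interval 0.313 to 0.507) and 1.06% of the drug and noise library (0.926 to 1.21), a ratio of 2.65 (2.01 to 3.52). More cells of a type and better recovery of its cells cannot be told apart in a share. The ratio depended on the rule. With at least 2 of the 4 keratins alone it was 1.76, from 55 and 112 barcodes. A second choice, made after the values were seen, used none of the keratin and mucosal genes. It took barcodes with Epcam and at least 3 of Aqp5, Gabrp, Pax1, Pax9, Foxa1, Foxe1 and Upk1b, genes of this epithelium that differed little between the libraries. That choice found 110 and 224 barcodes, also a ratio of 1.76 (1.40 to 2.23), and 60 and 185 of them were selected by the rule as well. Other epithelia of the same libraries had ratios nearer 1: barcodes with Ceacam16 and Epyc, supporting cells of the cochlea, numbered 185 and 235 (ratio 1.10, 0.90 to 1.34), and barcodes with Slc26a4 and Epcam but no Ceacam16 numbered 164 and 211 (1.11, 0.90 to 1.37).

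The keratin to mucosal contrast was also present in the barcodes chosen without those genes. Krt15 was in 81 of 110 noise-only and 46 of 224 drug and noise barcodes of that choice, at 1447 and 146 CPM (ratio 0.10, 0.09 to 0.12). Ly6k was in 4 and 154 of them, at 4.92 and 514 CPM. Reg3g was in 31 and 173 of them, at 167 and 3240 CPM (19.4, 16.3 to 23.2). Krt5 was at 193 and 90 CPM (0.47, 0.36 to 0.60).

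Across the genes, 728 of 8070 with at least 20 UMIs in the 2 sums had a ratio of at least 2 (9.02%), and 269 had a ratio of at most 0.5 (3.33%). The rule genes Ly6k, Reg3g and Krt17 are among the former and Krt5, Krt15 and Krt19 among the latter. The median log2 ratio over all of these genes was 0.07. Genes of acute-phase and antimicrobial secretion led the higher side. Lcn2, which binds iron-carrying bacterial siderophores, had 4 UMIs in 2 noise-only barcodes and 3453 UMIs in 154 drug and noise barcodes (7.45 and 2759 CPM, ratio 370, interval 144 to 1359). Its single-barcode maximum was 3 UMIs in the noise-only and 525 UMIs in the drug and noise library. In the other passing barcodes Lcn2 was at 47.5 and 194 CPM. Among barcodes chosen without the keratin and mucosal genes the noise-only library held 82 Lcn2 UMIs in 6 barcodes, and the ratio was 32.1 (25.8 to 40.5).

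Several of the other genes that led the higher side also code for secreted defence or acute-phase proteins. Hp, haptoglobin, which binds free haemoglobin, was in 1 of 70 and 79 of 214 barcodes (2 and 565 UMIs, ratio 121, 33.4 to 1003). Slpi, an inhibitor of leukocyte proteases, was in 2 and 65 barcodes (2 and 215 UMIs, ratio 46.1, 12.6 to 383). Clu, an extracellular chaperone, was at 857 CPM in 75.7% of noise-only and 9356 CPM in 96.3% of drug and noise barcodes (ratio 10.9, 9.94 to 12.01). Cxcl5, a chemokine for neutrophils, had 0 and 103 UMIs, at least 14.7-fold higher when 3 UMIs are set as the floor for the noise-only sum (the exact interval starts at 11.8). Chil1, a chitinase-like protein, had 0 and 67 UMIs, at least 9.57-fold higher on the same floor (interval from 7.57).

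The rest of the leading genes had mixed roles. Bmx, a kinase, had 1 and 140 UMIs (ratio 60.0, 10.6 to 2387). Timp1, an inhibitor of matrix proteases, had 4 and 176 UMIs (18.9, 7.24 to 70.0), and the matrix protein Fbln2 had 1 and 95 UMIs (40.7, 7.14 to 1625). Sfrp1, a secreted Wnt antagonist, was in 14.3% and 57.0% of barcodes (12.6, 7.11 to 24.6). Sftpd, surfactant protein D, was in 5.71% and 28.5% (15.1, 6.81 to 41.5), and Clca3a2 was in 4.29% and 32.2% (18.3, 6.12 to 89.9). The ratio of each of these 12 genes from Lcn2 to Clca3a2 moved by more than 1.5 times in at least 1 alternative setting. It stayed above 2 in all 16 settings except for Chil1, whose lowest bound was 1.44. The lowest value was 2.13 for Cxcl5, also a bound, 2.76 for Fbln2, 4.92 for Bmx and 5.90 for Slpi.

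Among the genes on the lower side were some products of the keratinised and luminal surface. The list of cornified and suprabasal epidermis was not lower as a list. Of its 5 genes with at least 20 UMIs, 1 had a ratio of at least 2 and 2 a ratio of at most 0.5. Over all genes those shares were 9.02% and 3.33%. The median log2 ratio of the list was 0.14, against 0.07 over all genes. Sprr1a, a cornified envelope precursor, had 217 and 51 UMIs and was in 61.4% of noise-only and 8.41% of drug and noise barcodes (ratio 0.10, 0.07 to 0.14). In the drug and noise library 45.1% of those Sprr1a UMIs were in 1 barcode. Cbr2, a carbonyl reductase of airway epithelium, was at 1623 and 269 CPM (0.17, 0.15 to 0.19). Krt4, a keratin of wet stratified epithelia, was at 662 and 149 CPM (0.23, 0.19 to 0.27), and Upk3bl, a uroplakin-like membrane protein, at 923 and 209 CPM (0.23, 0.19 to 0.26). Muc16, a membrane mucin, was in 55.7% and 10.3% of barcodes (0.18, 0.12 to 0.26). Of the lower genes named here and next, 4 were above 0.5 with the clusters given their noise-only weights: Muc16 at 0.73, Aldh3a1 at 0.76, Ccnd1 at 0.57 and Cyp2f2 at 0.51.

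Bpifa1 itself was at 149619 and 48667 CPM (0.33, 0.32 to 0.33). Cyp2f2 was at 3174 and 895 CPM (0.28, 0.26 to 0.30), and Aldh3a1, an aldehyde dehydrogenase of surface epithelia, at 399 and 113 CPM (0.28, 0.23 to 0.35). The taurine transporter Slc6a6 was at 382 and 83.9 CPM (0.22, 0.17 to 0.28), the cyclin Ccnd1 at 436 and 113 CPM (0.26, 0.21 to 0.32) and Igfbp3, a binding protein of insulin-like growth factors, at 72.7 and 12.8 CPM (0.18, 0.09 to 0.32). Because Bpifa1 takes so large a share of the noise-only UMIs, the totals were also set without it: 534 genes then had a ratio of at least 2 and 452 a ratio of at most 0.5.

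**Figure D3:**
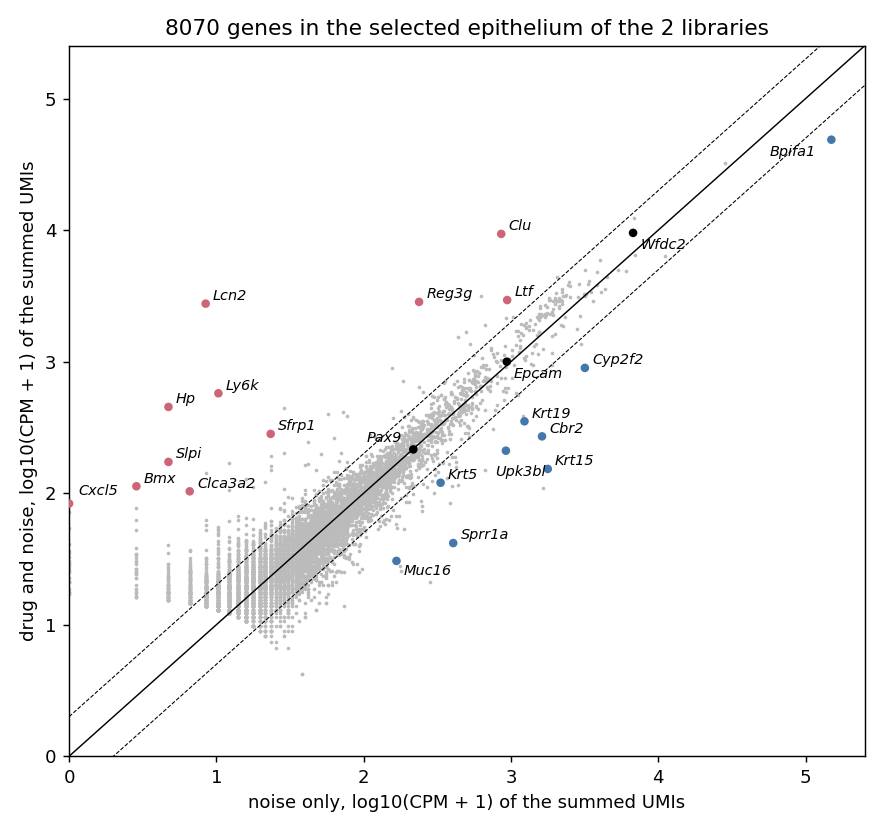
Level of 8070 genes in the summed selected barcodes, as log10 of CPM plus 1, in the noise-only library (horizontal axis) against the drug and noise library (vertical axis). The solid line marks equal levels and the dashed lines a ratio of 2 and of 0.5. Named genes are red where the ratio is at least 2, blue where it is at most 0.5 and black between. Lcn2 stands farthest above the line among the named genes, and Pax9 and Epcam lie on it.

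The sequences before the start of 3 of these genes are printed because the genes carried the contrast in opposite directions: Reg3g and Lcn2 were higher and Bpifa1 was lower in the drug and noise barcodes. Each is the 250 bases before the RefSeq start on GRCm38.p6, 5′ to 3′ on the strand of the gene. Capitals mark matches on either strand to the TATA box letters TATAAA, to the AP-1 site letters TGANTCA and to the CCAAT box letters CCAAT. No matches overlap. Reg3g lies at chr6:78468875-78469124 on the minus strand, Lcn2 at chr2:32387740-32387989 on the minus strand and Bpifa1 at chr2:154142630-154142879 on the plus strand.
Reg3g: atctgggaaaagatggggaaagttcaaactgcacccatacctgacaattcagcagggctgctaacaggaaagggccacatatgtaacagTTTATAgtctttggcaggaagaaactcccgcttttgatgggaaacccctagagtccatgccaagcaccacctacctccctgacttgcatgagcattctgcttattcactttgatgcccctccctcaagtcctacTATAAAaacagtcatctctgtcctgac
Lcn2: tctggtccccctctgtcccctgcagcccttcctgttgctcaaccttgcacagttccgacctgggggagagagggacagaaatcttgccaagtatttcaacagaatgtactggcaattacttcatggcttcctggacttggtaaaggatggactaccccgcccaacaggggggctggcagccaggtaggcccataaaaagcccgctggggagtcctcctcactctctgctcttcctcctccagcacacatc
Bpifa1: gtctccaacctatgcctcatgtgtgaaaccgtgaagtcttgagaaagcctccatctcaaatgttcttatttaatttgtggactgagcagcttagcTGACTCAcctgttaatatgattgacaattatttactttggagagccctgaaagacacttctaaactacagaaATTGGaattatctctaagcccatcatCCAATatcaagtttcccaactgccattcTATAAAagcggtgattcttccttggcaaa

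The TATAAA letters begin 27 bases before the start of Reg3g and 29 bases before the start of Bpifa1, and Reg3g holds a further match on the opposite strand. Bpifa1 also holds 1 match to TGANTCA and 2 matches to CCAAT, and these letters are not in the Lcn2 window. Of 32851 windows of the same length, 12.4% hold TATAAA, 6.75% hold TGANTCA and 33.8% hold CCAAT on either strand. A match is a description of letters and not of binding.

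Genes grouped by role gave 2 lists whose median log2 ratio was beyond 1, against a median of 0.07 over all genes. The list counts that follow stand against the 9.02% of all genes at a ratio of at least 2 and the 3.33% at a ratio of at most 0.5. A gene that reached 20 UMIs through the drug and noise library alone had to have a high ratio, so these counts describe the genes measured. In the list of antimicrobial and mucosal defence, 14 of 26 genes had at least 20 UMIs, of which 9 had a ratio of at least 2 and 1 a ratio of at most 0.5, with a median log2 ratio of 2.38. With the genes at 0 in the noise-only library set to the floor, the median was 1.74. Ltf, the iron-binding protein lactoferrin, was at 941 and 2937 CPM (3.12, 2.84 to 3.43), and Cxcl17 at 253 and 586 CPM (2.31, 1.92 to 2.80). The list holds Reg3g, a rule gene. Defb1 and the peptidoglycan recognition protein gene Pglyrp1 had ratios of 0.60 and 0.74. Bpifa1 was the gene at most at 0.5. S100a8 and S100a9, abundant proteins of neutrophils, had 30 and 50 UMIs in the drug and noise barcodes against 1 and 0, and 54.0% of those S100a9 UMIs lay in 1 barcode. Without barcodes that carried markers of other cell types, the median was 0.98 over 11 genes.

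In the MHC class II list, 4 of 8 genes had at least 20 UMIs, and the 3 with a ratio of at least 2 reached that number only through the drug and noise library. The median log2 ratio was 4.03, and 2.12 with genes at 0 set to the floor. Cd74, the class II invariant chain, had 1 and 42 UMIs, and H2-Ab1 had 0 and 37 UMIs, of which 70.3% were in 1 barcode. Cd74 was at 155 and 159 CPM in the other passing barcodes, above its level in the selected ones. In the interferon response list, 3 of 17 genes had a ratio of at least 2 and 0 a ratio of at most 0.5, with a median of 0.36. In the MHC class I list, 0 of 11 genes were beyond 2-fold in either direction.

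Of the genes that anchor epithelial cells to each other and to the basement membrane, a part was lower. In the desmosome and hemidesmosome list, 0 of 18 genes had a ratio of at least 2 and 6 had a ratio of at most 0.5, with a median log2 ratio of -0.66. Dsp, desmoplakin, was at 306 and 136 CPM (0.44, 0.36 to 0.55). Dsg2, a desmosomal cadherin, was at 63.4 and 19.98 CPM (0.32, 0.18 to 0.54), and Lama3, a laminin chain, at 46.6 and 11.98 CPM (0.26, 0.13 to 0.51). Col17a1, a collagen of hemidesmosomes, had 21 and 13 UMIs (0.27, 0.12 to 0.56), and that direction reversed when clusters were weighted as in the noise-only library (1.96). Jup, plakoglobin, was at 109.96 and 110.3 CPM.

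Among stress and housekeeping groups, several lists had no gene beyond 2-fold. In the immediate early list 0 of 17 genes were beyond 2-fold, with a median log2 ratio of -0.18, and Fos was at 3232 and 3243 CPM (0.95 to 1.06 times). In the mitochondrially encoded list 0 of 13 genes and among histone deacetylases 0 of 8 were beyond 2-fold. Of the heat shock chaperones, 1 of 13 had a ratio of at least 2, the small chaperone Cryab (2.37, 1.87 to 3.03), which was at least 2 in 12 of 16 settings and 1.80 at the lowest. In the list of genes reported to rise with deacetylase inhibitors, 2 of 17 had a ratio of at least 2 and 1 a ratio of at most 0.5, with a median of 0.04, and the 2 were Clu and Stmn2. Stmn2, a neuronal gene, had 88.9% of its noise-only UMIs in 1 barcode, and its ratio of 2.38 became 0.54 with keratins alone. The lower one was Tubb3, a neuronal tubulin, with 95.5% of its noise-only UMIs in 1 barcode and a direction that reversed in 3 settings. In the antioxidant and glutathione list 3 of 23 were at least at 2 and 3 at most at 0.5: Gpx2, a glutathione peroxidase of gut and airway epithelium, had 12 and 239 UMIs (8.54, 4.80 to 16.8), while Cbr2, Cyp2f2 and Aldh3a1 were the lower ones.

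In the injury and wound response list 1 of 12 genes had a ratio of at least 2, the rule gene Krt17 (2.01, 1.62 to 2.52), and 3 had a ratio of at most 0.5. The Krt17 ratio was at least 2 in 8 of 16 alternative settings and ran from 1.03 to 3.03. The 3 lower genes were Sprr1a, the urokinase receptor Plaur (188 and 52.7 CPM, 0.28, 0.20 to 0.39) and the interleukin 1 antagonist Il1rn (16 and 7 UMIs). Hbegf, a growth factor, was at 1366 and 961 CPM (0.70, 0.64 to 0.77). In the ion transport list, 2 of 13 genes had a ratio of at least 2 and 1 a ratio of at most 0.5, Aqp3 (0.40, 0.33 to 0.48). In the cell cycle list 2 of 6 genes with at least 20 UMIs had a ratio of at least 2 and 2 a ratio of at most 0.5. The higher ones, Top2a (1 and 19 UMIs) and Hells (1 and 27 UMIs), were scarce, and the proliferation marker Mki67 had 0 and 9 UMIs. The lower ones were the cyclins Ccnd1, given above, and Ccnd2, at 417 and 186 CPM (0.45, 0.37 to 0.54).

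**Figure D4:**
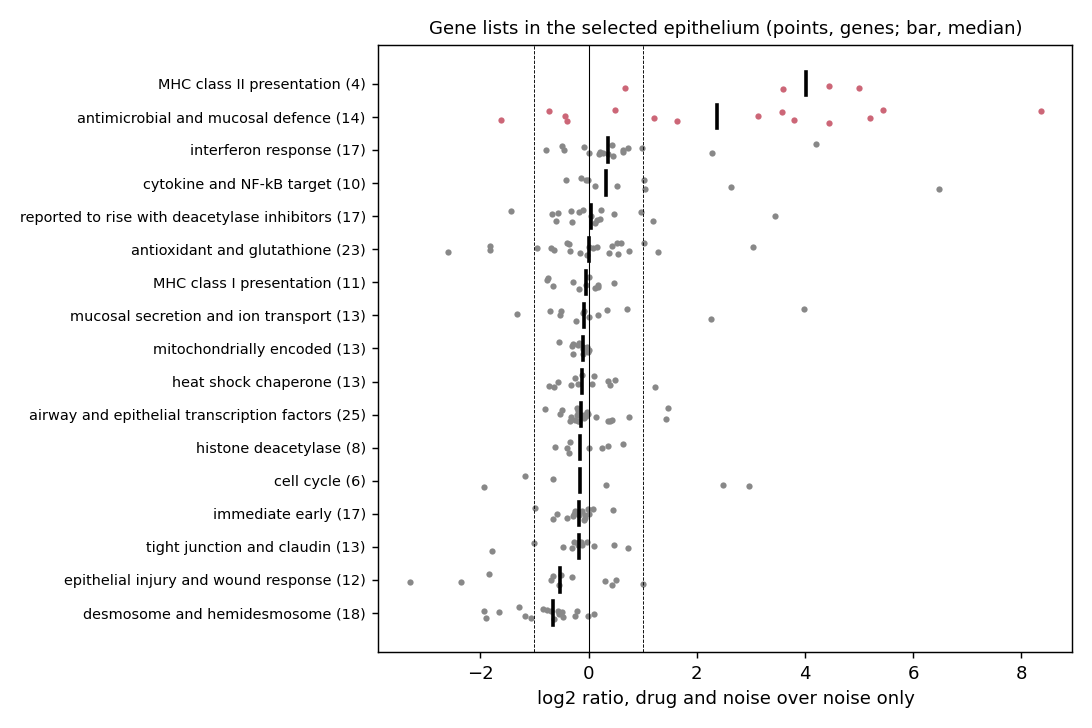
Log2 ratio of the drug and noise library over the noise-only library (horizontal axis) for the genes of 17 lists in the selected barcodes. Points are genes with at least 20 UMIs (their number in brackets), the bar is the median of the list, the dashed lines mark a ratio of 2 and of 0.5, and red marks a list with a median of at least 1. Only the MHC class II and the antimicrobial lists have a median past the dashed line.

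Clustering of the 284 selected barcodes by 2000 variable genes gave 5 clusters, which the libraries filled unequally. Cluster 4 held 45 noise-only and 3 drug and noise barcodes and had Itgb7, Sprr1a, Krt15 and Cbr2 among its leading genes. Cluster 3 held 0 and 56 barcodes and was led by Sftpd, Lcn2, Cxcl5, Hp and Fbln2. Cluster 1 held 8 and 78 barcodes and was led by Clca3a2, Dlk2, Krt14, Mobp and Dapl1, with Krt5 in 60.5% and Krt17 in 69.8% of its barcodes. Cluster 5 held 7 and 25 barcodes, led by Prss32, Alox15, Fut9, Calml3 and Serpinb2, and had the highest Reg3g level (6599 CPM) and Krt19 in 100% of its barcodes. Cluster 2 held 10 and 52 barcodes and was led by Syt11, Igfbp6, Myl9, Itgb8 and Gulp1. A cluster filled mostly by 1 library may be that library and not a cell type, and the clusters are kept as numbers.

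Inside the 4 clusters that held both libraries, some genes kept the direction of their ratio in each cluster and others did not. Krt15 and Reg3g are rule genes, and their values here are a description. The Krt15 ratio was 0.15 in cluster 1, 0.09 in cluster 2, 0.07 in cluster 4 and 0.52 in cluster 5. The Reg3g ratio was 5.22, 15.8, 3.97 and 5.70, and the Clu ratio was 17.8, 5.16, 2.60 and 18.2. The Bpifa1 ratio was 0.19, 0.33, 0.47 and 0.30. Lcn2 had 1, 3, 0 and 0 UMIs in the noise-only barcodes of these clusters and 305, 646, 3 and 78 UMIs in the drug and noise barcodes. The Krt5 ratio was 1.12 and 1.16 in clusters 1 and 2 with intervals that span 1. The Krt19 ratio was 0.96 in cluster 5 (0.70 to 1.32), and the Cyp2f2 ratio there was 0.80 (0.66 to 0.99). Sprr1a had a ratio of 0.76 in cluster 2 from 3 and 11 UMIs (0.20 to 4.22). In cluster 1, Hp had 0 and 23 UMIs and Slpi 0 and 32 UMIs, too few against 8 noise-only barcodes to set a bound above 1. Cluster 4 has only 3 drug and noise barcodes and cluster 5 only 7 noise-only ones.

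**Figure D5:**
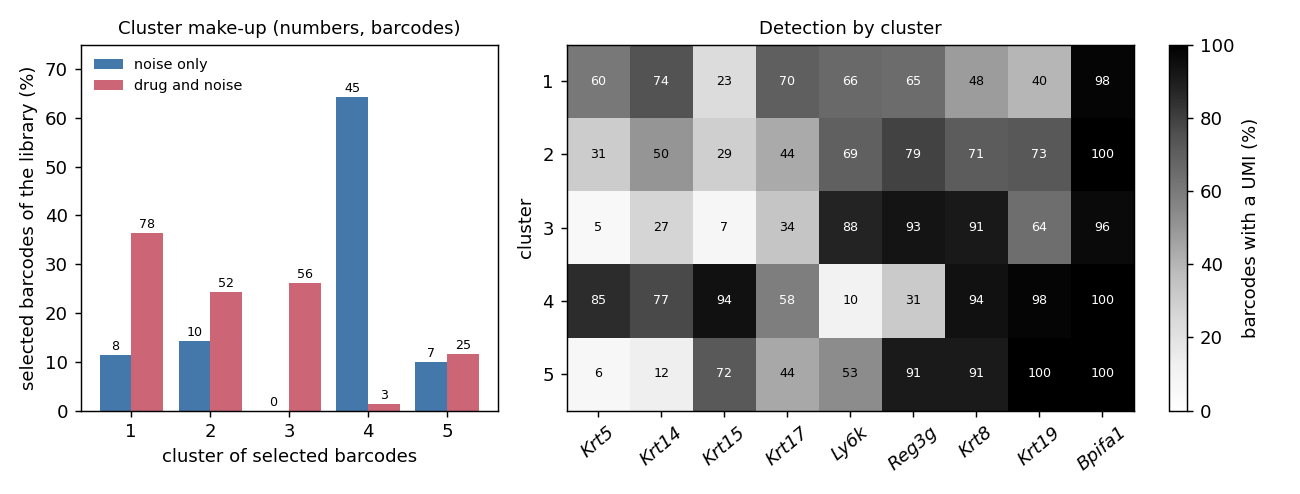
Left, share of the selected barcodes of each library (vertical axis, percent) in each of 5 clusters (horizontal axis), with the number of barcodes above each bar. Right, percent of barcodes of each cluster with at least 1 UMI of 9 genes. Cluster 4 holds 45 of the 70 noise-only barcodes, cluster 3 holds drug and noise barcodes alone, and Bpifa1 is in at least 96.4% of the barcodes of every cluster.

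RNA of other cell types was present in the selected barcodes. At least 3 markers of a cell type outside the epithelium were seen in 47 of 70 noise-only (67.1%) and 120 of 214 drug and noise barcodes (56.1%), mostly of the Schwann and satellite glia list (39 and 104). The deeper barcodes carried them more often: the median depth with such markers was 7535 and 6264 UMIs, and without them 3973 and 3880. These counts leave out the lists of choroid plexus (2 and 1 barcodes) and of mesothelium and arachnoid barrier (60 and 129 barcodes). The latter list shares Krt19 and Cdh1 with the simple epithelium list and also holds Upk1b. The summed level of the 12 Schwann list genes was 2059 and 2453 CPM. Doublet scoring marked 1 of 70 noise-only and 37 of 214 drug and noise barcodes (1.43% and 17.3%), against 4.62% and 12.9% of all passing barcodes. Of cluster 2, 27 of 62 barcodes were marked as doublets and 54 carried at least 3 Schwann list markers. Without the marked doublets Lcn2, Hp, Clu and Reg3g kept ratios above 2 and Krt15, Cbr2 and Bpifa1 kept ratios below 0.5, as they did without barcodes with markers of other types. Ttr, a choroid plexus gene, was at 1649 and 108 CPM in the selected and 4314 and 343 CPM in the other barcodes, and Hbb-bs, a haemoglobin chain, at 2043 and 4435 CPM in the selected and 8591 and 11938 CPM in the other barcodes. Genes of cells outside the epithelium thus had unequal levels in the 2 libraries, and the part of such RNA in the ratios was not tested. Lcn2, Hp and Clu were all higher in the selected drug and noise barcodes than in the other barcodes of that library, at 14.2, 15.1 and 11.4 times their level.

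The antimicrobial list did not have this pattern in every epithelium of the same libraries. In the Ceacam16 and Epyc barcodes 6 of 10 genes with at least 20 UMIs had a ratio of at least 2 and 1 a ratio of at most 0.5. The median log2 ratio was 3.87, against 2.38 in the selected barcodes, and neither median sets genes at 0 to the floor. Few of the Ceacam16 and Epyc barcodes held such RNA: Ltf had 0 and 35 UMIs, in 0% and 1.28% of them. There Lcn2 was at 10.9 and 51.0 CPM (4.69, 2.03 to 12.6) and in 2.16% and 1.28% of barcodes, against 1.82% and 2.43% of all barcodes outside the selected epithelium. In the Slc26a4 and Epcam barcodes 0 of 11 genes had a ratio of at least 2 and 7 a ratio of at most 0.5, with a median of -1.92, and Lcn2 was at 119 and 37.96 CPM (0.32, 0.20 to 0.50). Of the genes lower there, Ltf had 33 and 4 UMIs, in 0.61% and 1.42% of barcodes. Hp had 17 and 3 UMIs, in 1.22% and 0.47%. In these epithelia too, a gene that reached 20 UMIs through 1 library alone had the side of its ratio set in advance. Bpifa1 was in at most 3.40% of the barcodes of either epithelium. Over all genes, 2.54% and 2.50% had a ratio of at least 2 in these epithelia, against 9.02% in the selected barcodes, and 2.73% and 3.40% had a ratio of at most 0.5, against 3.33%. These shares come from sums of unlike balance. The selected sums held 536570 and 1251564 UMIs. The sums were 643990 and 627407 UMIs in the Ceacam16 and Epyc barcodes, and 690940 and 711295 in the Slc26a4 and Epcam barcodes. At a minimum of 50 UMIs, 230 of 4692 genes of the selected barcodes had a ratio of at least 2. How far the balance of the sums set the shares was not tested. With 1 library per group, the difference between epithelia was not tested. Krt8 and Krt18, present in all of them, had ratios of 0.58 and 1.25 in the selected barcodes, 0.68 and 0.58 in the Ceacam16 and Epyc barcodes, and 1.04 and 1.09 in the Slc26a4 and Epcam barcodes.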

How the data were processed

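A pair of pooled single-cell libraries of mouse cochlear sensory epithelium were analysed, 1 for each group, prepared with the 10x Genomics 3′ v3.1 kit after trypsin digestion. The deposited values are raw UMI counts per gene and barcode, made by the authors with Cell Ranger (5.0.1 per the file headers, 5.0 per the submitters' processing notes, which also name STAR, Seurat 3.2.2 and the mm10 and GRCm38 builds). The files hold 18545 and 21773 barcodes with 38380393 and 39939170 UMIs, beside the roughly 20000 cells the labels state, and 17423 and 20133 barcodes passed the filters of at least 500 UMIs, at least 300 genes and at most 20% mitochondrial UMIs.

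Counts were summed over the selected barcodes of each library (536570 and 1251564 UMIs) and scaled to CPM. Cells are not replicates, so no p-value was computed. Ratios of genes with at least 20 UMIs in the 2 sums carry an exact conditional binomial interval, and shares an exact Clopper-Pearson interval. Log2 ratios add 0.5 UMIs to each sum. Where a sum was 0, 3 counts served as the floor. Only the ratio, its interval and the 2-fold call were tried on simulated sums with known folds, which held counting error and no spread between cells. Shares were also compared after thinning each barcode to 1000 UMIs. Doublets were scored with Scrublet in scanpy 1.11.5, at an expected rate of 0.08, with score thresholds of 0.264 and 0.164 in the 2 libraries, and were kept in the main values. Clusters came from 2000 variable genes, 15 principal components, 15 neighbours and Leiden resolution 0.5.

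Named genes were the rule genes, 20 genes highest over other barcodes in both libraries, 12 in each direction by the interval bound nearest 1 (at least 50 UMIs, in at least 5% of barcodes of the higher library, at least 2 times the share in other barcodes, at most 20% of UMIs in 1 barcode), up to 3 in each direction per list with its most abundant gene, and the leading 5 of each cluster. Some genes this rule names are not reported here. Other genes named were chosen after their values were seen. The selected cells, the rule and the gene lists were chosen with earlier results of these data known. Alternatives covered filters, the rule, doublets, other cell types, scaling (TMM factors from edgeR 4.0.16 on the sums), clusters and minimum counts. Promoter windows came from RefSeq on GRCm38.p6.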

Additional observations from a re-analysis of the deposited data

How the results depend on the processing

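No paired analysis was possible because each group is 1 library and barcodes carry no mouse of origin. The share ratio of 2.65 was within its interval in 6 of 9 settings, and was 3.54 without barcodes that carried markers of other cell types, 1.76 with at least 2 of the 4 keratins alone and 1.76 in the choice without keratin and mucosal genes. The 728 genes with a ratio of at least 2 became 391 without markers of other types, 381 with keratins alone, 485 in the choice without keratin and mucosal genes, 1177 without the top barcode of each gene, 1416 with the clusters given their noise-only weights, 230 at a minimum of 50 UMIs and 1883 at a minimum of 5. The 269 genes with a ratio of at most 0.5 became 160 without markers of other types, 3051 with clusters weighted, 121 at 50 UMIs, 730 at 5 UMIs and 452 with totals without Bpifa1. The weighted setting gives 3 drug and noise barcodes of cluster 4 72.0% of the weight. The 2 lists with a median log2 ratio beyond 1 became 1 without marked doublets, 1 without markers of other types and 5 with clusters weighted. The keratin-only, Bpifa1, cluster 2 and keratin-free settings were chosen after seeing the data.

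Of 62 named genes beyond 2-fold, 54 kept their side of 1 in every setting that gave a usable ratio. Beyond 2-fold in every such setting were 29, among them Lcn2, Hp, Clu, Bpifa1 and the rule genes Reg3g and Krt15. Many named genes were picked for large ratios in these data, and every setting reuses barcodes of the same 2 libraries. These counts therefore describe the effect of processing and are no evidence for the ratios. Direction reversed for Tubb3 (6.20 with 3 rule genes, 6.24 with 2 UMIs of each of 2 rule genes, 5.57 without its top barcode), Stmn2 (0.54 with keratins alone) and Cxcl2 (0.73 in the choice without keratin and mucosal genes). With clusters weighted, it reversed for Col17a1 (1.96), Cxcl2 (0.95), Cxcl1 (0.67), Usp18 (0.72), Aldh1a3 (0.97) and Irx5 (0.83). The cause of each was not tested. The range over settings was 32.1 to 1495 for Lcn2, 21.8 to 147 for Hp, 3.99 to 17.6 for Clu, 6.02 to 19.6 for Reg3g, 0.08 to 0.11 for Krt15 and 0.28 to 0.42 for Bpifa1. With 70 noise-only barcodes, genes under about 20 UMIs in the 2 sums could not be compared at this depth.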

Other observations

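Krt15 appeared in a further place in the drug and noise library. Among barcodes with at least 3 markers of ciliated epithelium that the rule did not select, Krt15 was seen in 12.1% of drug and noise barcodes and 0.546% of noise-only barcodes, while Krt5 was seen in 0% of both. The 2 sets differed in depth, with medians of 2213 UMIs in the drug and noise and 6801 UMIs in the noise-only library. Barcodes with those markers numbered 246 in the drug and noise library and 184 in the noise-only library, of which the rule selected 6 and 1. Foxj1, the master factor of motile cilia, had 0 UMIs in the selected noise-only barcodes and 25 UMIs in 10 selected drug and noise barcodes. No explanation of these values was tested.

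Ly6d, a surface protein of stratified epithelium, was in 68.6% of selected noise-only and 82.7% of selected drug and noise barcodes (492 and 1691 CPM, ratio 3.44, interval 3.02 to 3.92). Cp, the copper-binding plasma protein ceruloplasmin, was at 55.9 and 398 CPM (7.12, 4.92 to 10.7), and C3, a complement component, had 6 and 131 UMIs (9.36, 4.19 to 26.0). Krt7, a keratin of ducts and simple epithelia, was at 457 and 259 CPM (0.57, 0.48 to 0.67). These genes were chosen after their values were seen.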
